A study of Mus musculus with 6 samples.

Results

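Of the genes that build the kinetochore and the mitotic spindle, most of those called as changed were higher in Th1 cultures exposed to the glycine transporter inhibitor ALX-5407, whereas Cenpa, the gene of the histone H3 variant that marks centromeres, was at 0.491 of its control level. These genes were taken as every protein-coding mouse gene whose symbol starts with Kif and a digit (the kinesin motors) or with Cenp and a letter (the centromere proteins), together with Aurka, Aurkb, Bub1, Bub1b, Ndc80, Nuf2, Spc24, Spc25, Plk1, Ttk, Espl1, Cdc20, Birc5, Incenp and Wee1. The rule gave 75 genes of the 54532 listed. It uses names only and no measured value. It also takes in kinesins that carry cargo in cells that are not dividing, and Kif1bp, which is a protein that binds kinesins rather than a motor.

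RNA was sequenced from 6 cultures of CD4+ T cells. The cells were splenic, came from C57BL/6 males and were activated with antibodies to CD3 and CD28 under Th1 conditions, that is with IL-2, IL-12 and an antibody that blocks IL-4. The 3 control cultures, called Th1 here, received the DMSO vehicle. The other 3, called Th1 + ALX, received 500 nM ALX-5407, an inhibitor of GlyT1, a plasma membrane importer of glycine. The labels put the RNA at 72 h, while the study's methods give a shorter exposure, so the time under the drug is not certain. Apart from the drug, both groups had the same strain, stimulus and cytokines. The labels call the cultures biological replicates but do not say whether each came from its own animal, so the p-values below measure the spread between these cultures, which may in part be technical.

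Chromosomes are pulled apart by microtubules that attach to kinetochores, protein plates built on centromeric chromatin. That chromatin is marked by CENP-A, which takes the place of histone H3 in some of its nucleosomes. A set of inner proteins, the constitutive centromere-associated network, reads this mark, and the NDC80 complex on the outer face grips the microtubule. Mitotic kinesins build, slide and shorten spindle microtubules. Aurora B and its passenger proteins destabilise wrong attachments, checkpoint kinases hold back CDC20 until all chromosomes are attached, and separase, encoded by Espl1, then cuts the cohesin that holds sister chromatids together. In activated T cells, which divide quickly, most of these genes are transcribed in the G2 and M phases and are a usual readout of how much of a culture is cycling. In RNA from whole cultures, however, a change in the number of cells in mitosis and a change in RNA per cell cannot be told apart.

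Levels are given as CPM, counts per 1000000 counts of the library, with library totals adjusted by the trimmed mean of M-values (TMM), and means are given ± SD over the 3 cultures of a group. Fold changes are Th1 + ALX over Th1 on the log2 scale, with the standard error (SE) and the p-value of edgeR's quasi-likelihood test, adjusted by Benjamini-Hochberg over the 15938 genes with enough counts to test. A gene is called higher or lower where that adjusted p is under 0.05. Library totals ran from 30801753 to 36727788 counts. Of the 75 genes, 67 were tested. Kif2b, Kif6 and Kif12 had no count in any library, Kif19a had at most 15 counts in a library, and Kif21a, Kif26a, Kif27 and Kif28 had fewer still.

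Of the 67 tested genes, 36 were higher and 7 lower in Th1 + ALX. A large part of the transcriptome differed between the groups, and the share called was 64.2% here against 47.7% of all tested genes. The difference lay in one direction. For higher calls the share was 53.7% of these genes against 24.5% of all genes and 29.5% of protein-coding genes, and for lower calls it was 10.4% against 23.2%. The median log2 fold change was 0.35 beside 0.01 for all tested genes, and single genes ran from -1.03 to 1.27. The 3 cultures of one group did not overlap the 3 of the other for 46 of the 67 genes, or 68.7%, where this held for 55.5% of all genes. Groups without overlap, as stated for single genes below, were therefore common in these data. An absolute log2 fold change over 1 was reached by Kif24, Wee1, Espl1 and Kif22 among the higher genes, where 3.36% of all genes were as far up, and by Cenpa among the lower ones, where 6.68% of all genes were as far down. All 75 genes together held 0.303% to 0.323% of the counts of a Th1 library and 0.388% to 0.412% of those of a Th1 + ALX library.

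**Figure D1:**
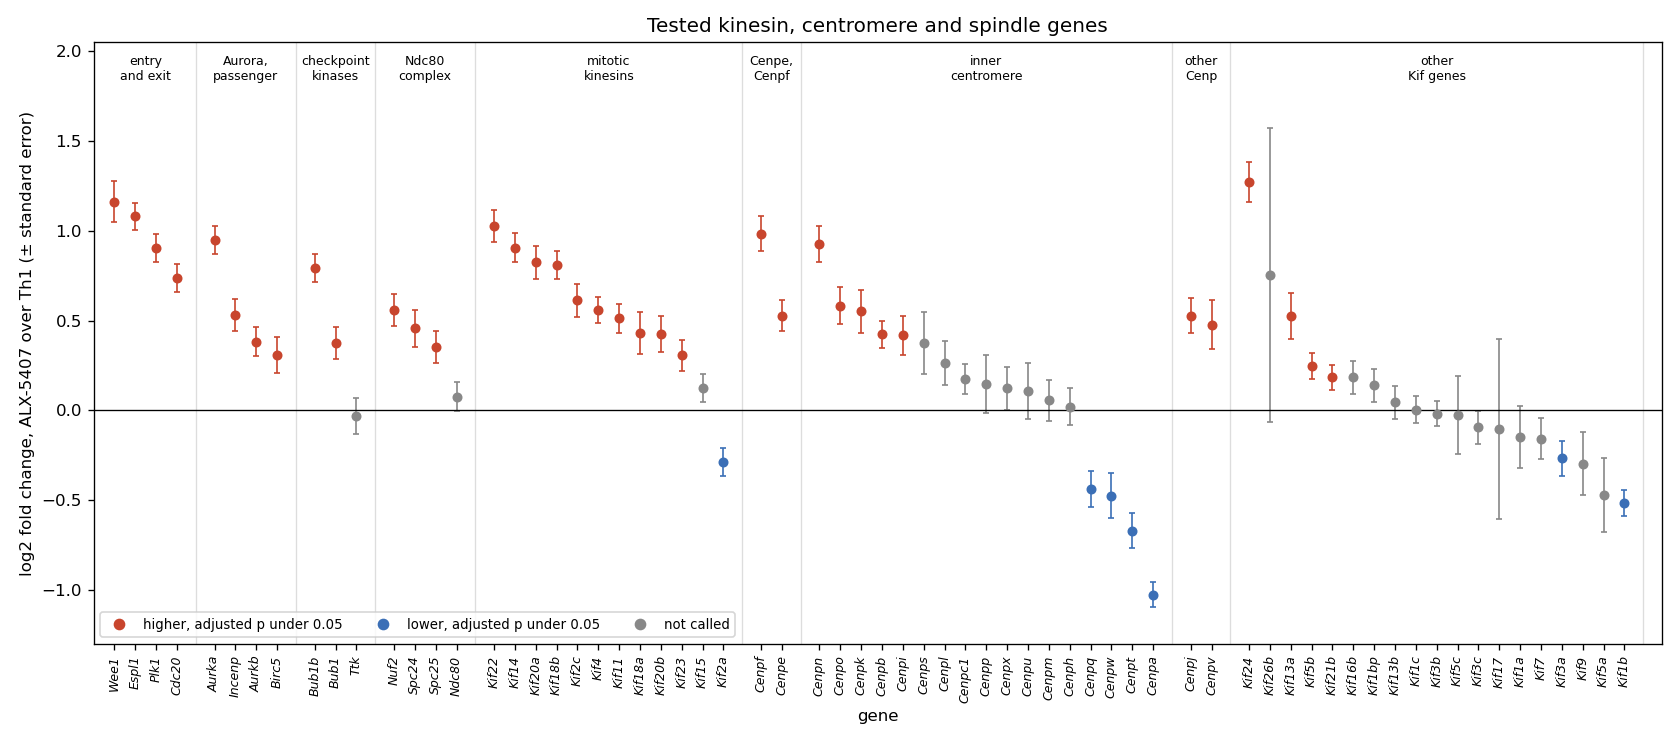
Log2 fold change (Th1 + ALX over Th1) of each of the 67 tested genes, arranged by role, with bars of 1 SE and colours for genes called higher, called lower or not called by edgeR's quasi-likelihood test. Most points lie above 0, and Cenpa lies lowest at -1.03.

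The role of other cells in these values was not tested, and markers of some moved with the drug. T cell markers summed to between 2918 and 3139 CPM in the Th1 libraries and to between 2399 and 2557 CPM in the Th1 + ALX libraries, with 5 of 8 tested markers lower and 1 higher. B cell markers were low throughout, at 7.60 to 8.84 CPM in sum against 11.4 to 14.4 CPM, with 3 of 5 higher. CD8 markers summed to 9.25 to 9.59 CPM against 6.71 to 8.87 CPM, with 1 of 2 lower. The NK list summed to 1.92 to 3.41 CPM against 4.96 to 5.58 CPM, and its only tested gene, Eomes, which T cells also express, was higher by 1.05. Myeloid and erythroid markers stayed at or below 1.06 CPM in sum in every library. These few markers stand beside 24.5% of all tested genes called higher and 23.2% called lower.

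The promoters show what many of these genes have in common beyond their names. Genes of G2 and M are typically controlled through a CHR element, with the letters TTTGAA or TTCGAA, set close downstream of CCAAT boxes. RefSeq windows of 300 bases, from 250 before to 50 after the transcription start on GRCm38.p6, were held for 63 of the 75 genes and were searched on both strands. A CHR sequence stood in 24 of 44 genes (54.5%) outside the group of other kinesins, in 4 of 19 (21.1%) within it, and in 21.7% of all 27025 genes with a window. CCAAT together with a CHR sequence stood in 20 of the 44 (45.5%), in 3 of the 19 (15.8%) and in 8.61% of all genes. Both were sought anywhere in the window, in any order and at any distance from each other. No filter for protein-coding genes was applied to the 27025. By call, both motifs stood in 16 of 29 higher genes (55.2%), in 2 of 7 lower genes (28.6%), namely Cenpa and Cenpw, and in 4 of 21 genes not called (19.0%). An E2F sequence (TTTCCCGC, TTTGGCGC or TTCCCGCC) was sought as well. It stood in 10 of the 44 genes (22.7%), in 1 of the 19 (5.26%) and in 3.69% of all genes. By call it stood in 4 of 29 higher genes (13.8%), in 0 of 7 lower genes and in 6 of 21 genes not called (28.6%). A match of letters is a description and does not show that a factor binds there. Below are 4 genes that were higher and the 2 lower genes that hold both motifs, with matches to CCAAT (or its complement ATTGG) and to TTTGAA (or TTCAAA) in capitals, written 5′ to 3′ along the gene, the last 50 bases lying after the start.
Cdc20: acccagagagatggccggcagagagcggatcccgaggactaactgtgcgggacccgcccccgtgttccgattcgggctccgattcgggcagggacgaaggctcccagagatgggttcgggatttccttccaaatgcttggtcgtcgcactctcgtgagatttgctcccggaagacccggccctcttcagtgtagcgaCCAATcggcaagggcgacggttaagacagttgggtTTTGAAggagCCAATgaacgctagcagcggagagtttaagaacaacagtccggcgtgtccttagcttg
Espl1: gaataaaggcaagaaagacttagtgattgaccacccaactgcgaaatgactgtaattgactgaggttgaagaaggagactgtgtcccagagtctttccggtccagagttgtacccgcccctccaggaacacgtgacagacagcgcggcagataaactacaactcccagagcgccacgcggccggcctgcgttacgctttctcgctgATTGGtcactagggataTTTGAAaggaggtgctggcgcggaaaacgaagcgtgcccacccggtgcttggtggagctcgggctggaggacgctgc
Kif22: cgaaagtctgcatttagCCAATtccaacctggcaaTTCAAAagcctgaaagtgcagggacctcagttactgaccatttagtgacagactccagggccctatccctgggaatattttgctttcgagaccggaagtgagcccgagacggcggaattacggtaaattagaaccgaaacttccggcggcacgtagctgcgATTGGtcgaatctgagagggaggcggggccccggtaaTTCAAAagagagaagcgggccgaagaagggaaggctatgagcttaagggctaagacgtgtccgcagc
Cenpn: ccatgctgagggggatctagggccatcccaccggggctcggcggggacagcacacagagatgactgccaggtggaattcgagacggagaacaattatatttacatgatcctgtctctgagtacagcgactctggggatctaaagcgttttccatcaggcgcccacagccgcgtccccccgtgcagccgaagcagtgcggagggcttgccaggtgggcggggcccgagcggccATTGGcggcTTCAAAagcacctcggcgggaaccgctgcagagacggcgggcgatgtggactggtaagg
Cenpa: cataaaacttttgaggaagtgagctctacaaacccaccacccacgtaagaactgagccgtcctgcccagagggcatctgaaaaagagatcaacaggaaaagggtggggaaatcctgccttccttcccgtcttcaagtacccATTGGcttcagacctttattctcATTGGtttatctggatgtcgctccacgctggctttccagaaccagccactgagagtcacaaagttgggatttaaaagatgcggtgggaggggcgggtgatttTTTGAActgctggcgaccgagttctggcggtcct
Cenpw: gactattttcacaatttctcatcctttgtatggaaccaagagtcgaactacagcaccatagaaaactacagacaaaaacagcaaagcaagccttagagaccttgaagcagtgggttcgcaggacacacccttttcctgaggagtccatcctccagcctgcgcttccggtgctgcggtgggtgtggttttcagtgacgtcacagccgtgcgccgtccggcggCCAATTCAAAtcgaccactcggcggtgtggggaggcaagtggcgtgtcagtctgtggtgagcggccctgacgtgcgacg

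Their places are chr4:118437294-118437593 on the minus strand for Cdc20, chr15:102296043-102296342 on the plus strand for Espl1, chr7:127042371-127042670 on the minus strand for Kif22, chr8:116921490-116921789 on the plus strand for Cenpn, chr5:30666636-30666935 on the plus strand for Cenpa and chr10:30200491-30200790 on the minus strand for Cenpw. In Cdc20, Espl1, Kif22, Cenpn and Cenpw a CHR sequence lay close before the start, the first base of the nearest match being at -18, -27, -17, -9 and -25. In Cenpa it lay after the start, at 17, with CCAAT boxes at -109 and -86. That placement also occurred among higher genes with both motifs that are not printed here. The CHR sequence lay at 33 in Aurka, 31 in Plk1 and 20 in Kif4, while in Kif11 it lay before the start, at -19. In Cenpw the CCAAT box and the CHR sequence share 1 base.

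The 4 genes that control entry into and exit from mitosis all rose, with a median log2 fold change of 0.99, where 24.5% of all tested genes were higher. Wee1 encodes the kinase that holds CDK1 inactive before mitosis (GRCm38 chromosome 7, 110122046 to 110143286, plus strand). Its level was 8.75, 7.495 and 8.03 CPM in the Th1 cultures and 18.9, 16.97 and 18.5 CPM in the Th1 + ALX cultures. Every treated culture lay above every control by a wide margin, a log2 fold change of 1.16 (SE 0.115, adjusted p = 5.68e-07). Plk1, the Polo-like kinase that drives centrosome maturation and mitotic entry, read 40.0, 39.7 and 35.4 CPM against 70.4, 75.5 and 70.0 CPM. The groups were again far apart, with a log2 fold change of 0.91 (SE 0.0790, adjusted p = 1.58e-07). Wee1 and Plk1 act in opposite directions on CDK1, and both transcripts were higher.

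At the exit from mitosis, Cdc20 encodes the activator of the anaphase-promoting complex, and its promoter is the first of those printed above. It read 43.9, 41.0 and 46.1 CPM in Th1 and 76.3, 69.3 and 72.8 CPM in Th1 + ALX. The log2 fold change was 0.74 (SE 0.0772, adjusted p = 1.09e-06), and no treated culture came near the controls. Espl1, the gene of separase, read 44.2, 45.2 and 49.7 CPM against 94.9, 99.5 and 99.99 CPM. With a log2 fold change of 1.08 (SE 0.0749, adjusted p = 1.38e-08), it had the smallest adjusted p of the 75 genes. Securin, encoded by Pttg1, binds and holds back separase. It is outside the rule and was looked at after its values were seen: Pttg1 read 23.1, 28.0 and 26.9 CPM in Th1 and 21.1, 17.6 and 19.4 CPM in Th1 + ALX, a log2 fold change of -0.43 (SE 0.105, adjusted p = 0.00306). The ratio of Pttg1 to Espl1 counts was 0.522, 0.620 and 0.542 in Th1 and 0.222, 0.177 and 0.194 in Th1 + ALX, with every treated culture below every control.

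**Figure D2:**
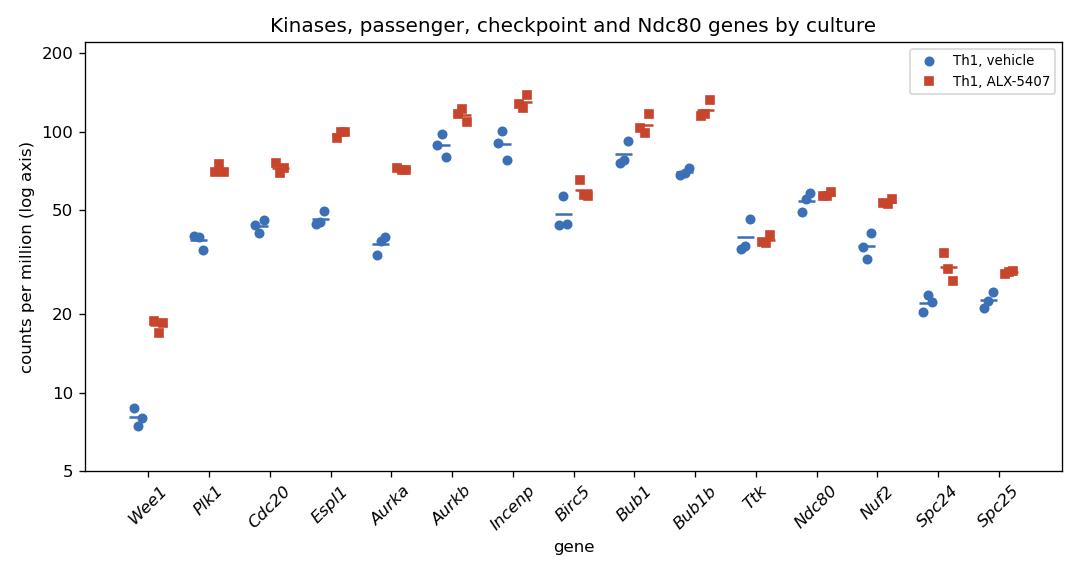
CPM in each culture for the 15 regulators named in the rule, with points for the Th1 and Th1 + ALX cultures and a bar at each group mean. Wee1, Plk1, Cdc20, Espl1, Aurka and Bub1b show groups far apart, whereas the points of Ttk and Ndc80 lie among each other.

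Aurora kinases and the chromosomal passenger complex also rose, all 4 genes, by a median of 0.46, beside 24.5% of all tested genes called higher. Aurka, which works at centrosomes and spindle poles, moved most. It read 33.8, 38.0 and 39.7 CPM in Th1 and 72.7, 71.2 and 71.3 CPM in Th1 + ALX, with no overlap and a log2 fold change of 0.95 (SE 0.0797, adjusted p = 1.09e-07). Its relative Aurkb, the catalytic subunit of the passenger complex, moved less, from 89.2, 98.0 and 80.1 CPM to 117, 122 and 109 CPM. The log2 fold change was 0.38 (SE 0.0818, adjusted p = 0.00107), and the ratio of Aurka to Aurkb counts went from 0.420 ± 0.0648 to 0.619 ± 0.0341. Incenp, the scaffold that activates Aurora B, read 90.5, 101 and 78.0 CPM against 128, 124 and 138 CPM, a log2 fold change of 0.53 (SE 0.0879, adjusted p = 0.000111). Birc5 encodes survivin, the subunit that brings the complex to centromeres. Here the groups overlapped, at 43.9, 56.9 and 44.3 CPM against 65.4, 57.2 and 56.8 CPM, and the call was weak (log2 fold change 0.31, SE 0.0998, adjusted p = 0.0181). Birc5 was no longer called without Th1 replicate 1 (log2 fold change 0.23), Th1 replicate 3 (0.23) or Th1 + ALX replicate 1 (0.24).

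The checkpoint kinases did not move as a unit. Bub1b encodes BUBR1, which holds CDC20 inactive within the mitotic checkpoint complex. It rose from 68.0, 69.3 and 72.9 CPM to 115, 117 and 132 CPM (log2 fold change 0.79, SE 0.0758, adjusted p = 4.01e-07), with the groups well apart. Bub1, the kinase that marks the inner centromere through histone H2A, read 75.6, 78.3 and 91.8 CPM against 104, 98.7 and 117 CPM. It was higher by 0.38 on the log2 scale (SE 0.0872, adjusted p = 0.00201) without overlap. Ttk, encoding MPS1, the kinase that starts the checkpoint signal, was not called, at 35.4, 36.5 and 46.3 CPM against 37.7, 37.7 and 40.4 CPM. Its log2 fold change was -0.03 with a 95% interval from -0.24 to 0.18, which leaves out a rise as large as that of Bub1b. The ratio of Bub1b to Ttk counts went from 1.80 ± 0.194 to 3.15 ± 0.111.

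In the NDC80 complex, which forms the direct contact between kinetochore and microtubule, 3 of the 4 subunits rose. Of all tested genes, 24.5% were higher. Nuf2, the partner of NDC80 in the microtubule-binding dimer, read 36.2, 32.6 and 41.1 CPM in Th1 and 53.4, 53.0 and 55.3 CPM in Th1 + ALX (log2 fold change 0.56, SE 0.0882, adjusted p = 7.23e-05). Spc24 and Spc25 form the end of the complex that sits on the kinetochore. Spc24 read 20.3, 23.7 and 22.2 CPM against 34.3, 29.8 and 26.9 CPM (0.46, SE 0.104, adjusted p = 0.00171), and Spc25 read 21.2, 22.5 and 24.4 CPM against 28.6, 29.1 and 29.2 CPM (0.35, SE 0.0899, adjusted p = 0.00406). None of these 3 overlapped between groups. Ndc80 itself read 49.2, 55.4 and 58.4 CPM against 56.6, 56.6 and 58.6 CPM and was not called, with a 95% interval of its log2 fold change from -0.09 to 0.25. The transcripts of 1 obligate dimer, Ndc80 and Nuf2, therefore had different calls. The difference between their changes was not tested.

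Of 13 mitotic kinesins, 12 were tested, 10 rose and 1 fell, with a median log2 fold change of 0.54. These shares, 83.3% higher and 8.33% lower, stand beside 24.5% and 23.2% of all tested genes. Kif22 encodes the chromokinesin that pushes chromosome arms towards the spindle equator (GRCm38 chromosome 7, 127027729 to 127042471, minus strand). It read 27.8, 33.0 and 33.4 CPM in Th1 and 64.6, 67.4 and 60.2 CPM in Th1 + ALX, a log2 fold change of 1.03 (SE 0.0880, adjusted p = 1.33e-07), the largest of this group. Kif14, needed late in cytokinesis, was very even in the controls, at 30.4, 30.4 and 30.6 CPM, and read 55.8, 53.6 and 62.0 CPM with the drug (0.91, SE 0.0813, adjusted p = 2.08e-07). Kif18b, which shortens astral microtubules, read 27.6, 26.9 and 27.2 CPM against 47.2, 47.1 and 49.0 CPM (0.81, SE 0.0782, adjusted p = 4.43e-07). In all 3 genes the treated cultures lay well above the controls.

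Kif20a, a motor of the central spindle that helps to place the passenger complex at anaphase, read 27.5, 25.8 and 29.5 CPM against 50.01, 43.9 and 52.8 CPM (0.82, SE 0.0912, adjusted p = 1.91e-06). Of its exon bases, 29.3% are shared with Cdc23 on the opposite strand, and whether the counting used strand is not given in the sources used here. Kif4, a chromokinesin that also organises the central spindle, read 47.2, 52.2 and 50.8 CPM against 73.3, 73.6 and 74.7 CPM (0.56, SE 0.0731, adjusted p = 1.06e-05), with 15.1% of its exon bases shared with Pdzd11. Kif2c encodes MCAK, which takes microtubules apart at wrongly attached kinetochores, and read 29.0, 32.8 and 35.9 CPM against 50.3, 46.8 and 52.3 CPM (0.61, SE 0.0904, adjusted p = 3.61e-05). The groups did not overlap for any of these motors.

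Kif11 encodes Eg5, the motor that slides spindle poles apart, and was the most abundant mitotic kinesin per length, at 97.6 TPM in Th1, which is the count per base of gene length scaled to 1000000 over all genes. It rose from 162 ± 12.7 to 231 ± 20.4 CPM (0.51, adjusted p = 7.49e-05). Kif15, which can act beside Eg5 in keeping spindles bipolar, was not called, at 95.95 ± 7.07 against 105 ± 7.88 CPM, with a 95% interval from -0.04 to 0.29. Kif18a, Kif20b and Kif23 rose by less, by 0.43, 0.43 and 0.31, and Kif23 was not called without Th1 + ALX replicate 3 (0.21). Kif2a was the exception in direction. A depolymerase like Kif2c but one that also works at spindle poles and in cells that do not divide, it fell from 137, 145 and 128 CPM to 101, 116 and 119 CPM (-0.29, SE 0.0796, adjusted p = 0.0071), with 19.2% of its exon bases shared with Dimt1. It was not called without Th1 + ALX replicate 1 (-0.21).

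**Figure D3:**
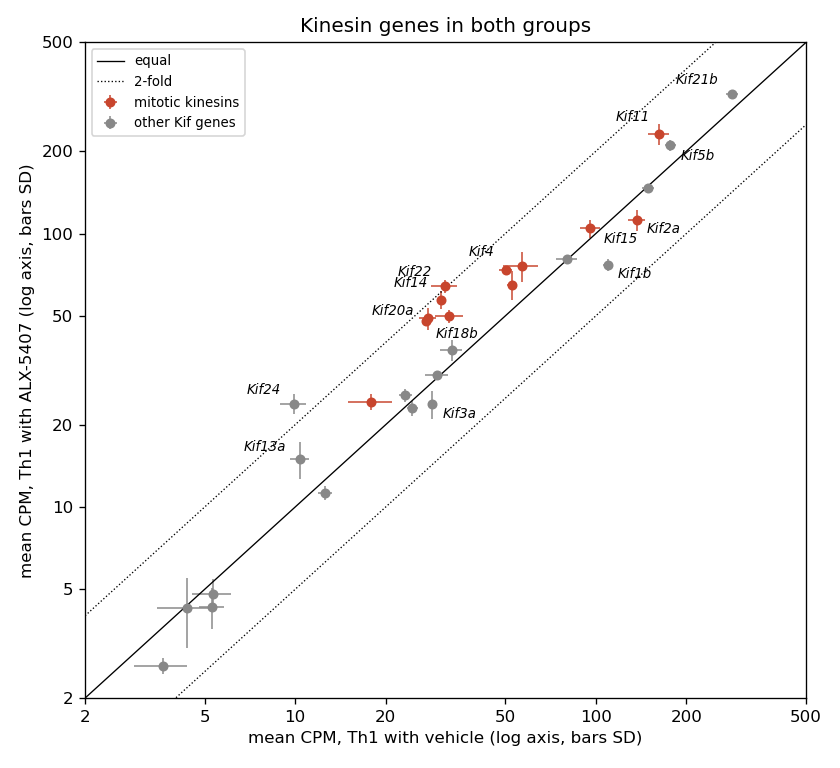
Mean CPM of tested kinesins in Th1 (horizontal axis) against Th1 + ALX (vertical axis), both on log scales, with bars of 1 SD and a diagonal line of equal level. Kif17 and Kif26b lie below the lowest level drawn, mitotic kinesins sit mostly above the diagonal, and the other kinesins sit mostly along it.

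Both large proteins of the fibrous outer kinetochore rose. Cenpf, also known as mitosin, read 64.6, 74.8 and 83.6 CPM in Th1 and 140, 136 and 165 CPM in Th1 + ALX (0.99, SE 0.0965, adjusted p = 5.14e-07). Cenpe, the kinesin that carries chromosomes towards the spindle equator, read 95.9, 118 and 112 CPM against 145, 154 and 171 CPM (0.53, SE 0.0864, adjusted p = 9.96e-05). Controls and treated cultures were separate for both.

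Of the 17 inner centromere genes, 5 rose, 4 fell and 8 were not called. These shares, 29.4% higher and 23.5% lower, lay near those of all genes, 24.5% and 23.2%, so the counts say nothing particular to the group, and the median was 0.15. The gene that moved farthest was Cenpa (GRCm38 chromosome 5, 30666777 to 30674830, plus strand), which per length was the most abundant of all 75 genes in Th1, at 116 ± 4.10 TPM. It read 230, 250 and 225 CPM in the Th1 cultures and 119, 117 and 111 CPM in the Th1 + ALX cultures. The groups lay far apart and the log2 fold change was -1.03 (SE 0.0719, adjusted p = 1.55e-08), a level 0.491 of that in the controls. Counts of Cenpa were also set against those of centromere genes that did not fall, as a description. A lower ratio follows from the changes already given and is no separate evidence. The count of Cenpa per count of Cenpf was 3.20 ± 0.455 in Th1 and 0.792 ± 0.105 in Th1 + ALX, and per count of Cenpc1, the gene of the protein that binds CENP-A nucleosomes, it was 5.76 ± 0.592 and 2.50 ± 0.259.

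**Figure D4:**
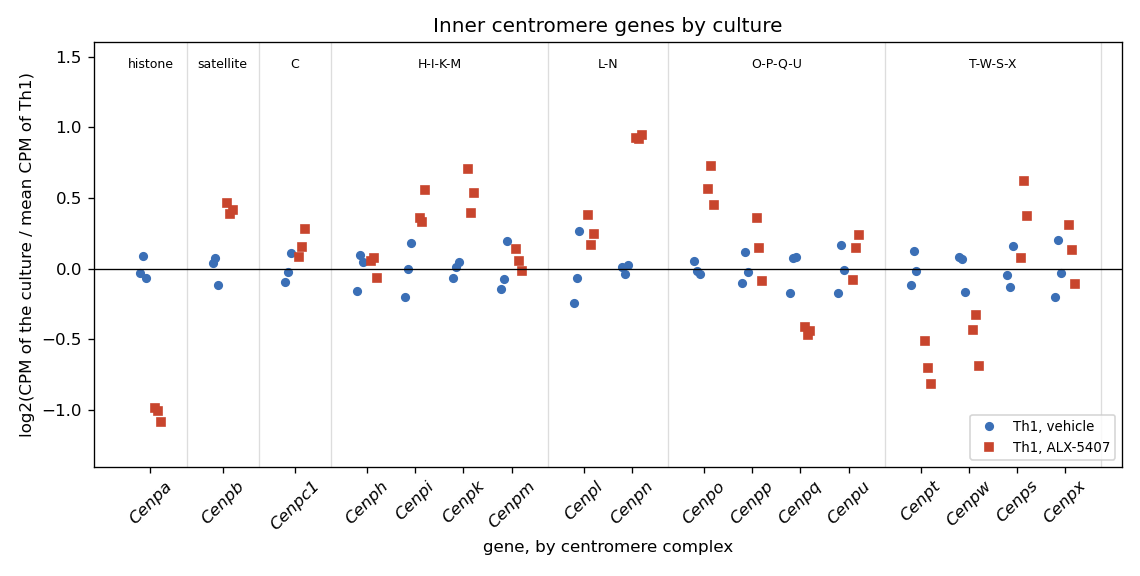
Log2 of the CPM in each culture over the mean CPM of Th1, for the 17 inner centromere genes arranged by complex. Points are Th1 and Th1 + ALX cultures, and a line marks the level of the Th1 mean. Cenpa, Cenpt, Cenpw and Cenpq are lower in every treated culture, and Cenpn is higher in every one.

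The other 3 genes that fell belong to the network that reads or extends the CENP-A mark. Cenpt and Cenpw encode partners in a complex with a histone-like fold that binds DNA and recruits NDC80. Cenpt read 40.8, 48.3 and 43.6 CPM against 31.04, 27.2 and 25.1 CPM (-0.67, SE 0.0964, adjusted p = 2.85e-05), and Cenpw read 15.8, 15.7 and 13.3 CPM against 11.04, 11.9 and 9.27 CPM (-0.47, SE 0.125, adjusted p = 0.00512). Cenps and Cenpx, the other members of that complex, were not called. Cenpq, in the complex of CENP-O, -P, -Q and -U that helps to bring Polo-like kinase to the kinetochore, read 20.2, 24.0 and 24.1 CPM against 17.1, 16.5 and 16.8 CPM (-0.44, SE 0.101, adjusted p = 0.00194). In each of these 3 genes every treated culture was below every control.

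Other inner centromere genes were higher. Cenpn encodes a subunit that contacts the CENP-A nucleosome directly (GRCm38 chromosome 8, 116921730 to 116941507, plus strand). It read 10.6, 10.3 and 10.7 CPM in Th1 and 19.96, 19.8 and 20.3 CPM in Th1 + ALX, and the spread within each group was very small beside the step between them (0.93, SE 0.102, adjusted p = 1.80e-06). Its partner Cenpl, with a 95% interval from 0.01 to 0.53, was not called after adjustment. The count of Cenpa per count of Cenpn went from 22.3 ± 1.77 to 5.76 ± 0.267. Cenpo read 16.1, 15.3 and 15.04 CPM against 22.9, 25.5 and 21.1 CPM (0.58, SE 0.103, adjusted p = 0.000195), so that Cenpo and Cenpq, products of 1 complex, went in opposite directions. Cenpo shares 19.0% of its exon bases with Adcy3.

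In the complex of CENP-H, -I, -K and -M, Cenpi and Cenpk rose, by 0.42 and 0.55, and Cenph and Cenpm were not called, at 0.02 and 0.06. Cenpb, whose protein binds the repeat DNA of centromeres, rose by 0.42 (adjusted p = 0.000226). Cenpc1, Cenpp and Cenpu were not called. Outside the kinetochore proper, Cenpj, which sets centriole length, rose by 0.53 (adjusted p = 0.000328), and Cenpv, at 6.13 ± 0.359 CPM in Th1, rose by 0.48 (adjusted p = 0.00863).

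Genes that place CENP-A into chromatin were chosen after their values were seen. Hjurp, the chaperone of CENP-A, read 549, 543 and 528 CPM in Th1 and 366, 375 and 356 CPM in Th1 + ALX, a log2 fold change of -0.56 (SE 0.0671, adjusted p = 4.25e-06) with no overlap. Oip5, which helps to prime centromeres for loading, was higher (0.42, adjusted p = 0.027), and Mis18a, of the same step, was not called (0.14, adjusted p = 0.248). Itgb3bp, the gene of CENP-R, which joins the complex of CENP-O, read 8.88, 9.22 and 9.39 CPM against 6.46, 5.55 and 6.99 CPM (-0.53, SE 0.138, adjusted p = 0.00449). Itgb3bp shares 8.59% of its exon bases with Pgm1 on the opposite strand. Pgm1 had a mean of 9065 counts per library against 258 for Itgb3bp. Oip5 shares 9.67% with Nusap1 on the opposite strand, at a mean of 386 counts against 3349.5 for Nusap1. Whether the counting used strand is not given.

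The kinesins outside mitosis changed least as a group. Of 26 genes, 19 were tested, 4 rose and 2 fell, and the median was -0.02. The share called was 31.6%, below the 47.7% of all genes. Among the members with mitotic or centromeric roles it was 77.1% of 48. Some of the 19 had few counts, such as Kif17 and Kif26b at 0.42 and 0.20 CPM in Th1, where a change is harder to call. Cultures of the groups did not overlap for 52.6% of the 19, near the 55.5% of all genes. Kif24, the exception in size, encodes a motor that restrains centrioles from forming cilia (GRCm38 chromosome 4, 41390745 to 41464887, minus strand). It read 10.9, 9.82 and 8.94 CPM in Th1 and 26.0, 23.8 and 21.9 CPM in Th1 + ALX, with a log2 fold change of 1.27 (SE 0.113, adjusted p = 1.91e-07), the largest of all 75 genes. At 3.57 TPM in Th1 it was far less abundant per length than Kif11 or Kif5b.

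Transport motors moved by smaller steps. Kif1b, which carries vesicles and mitochondria, fell from 106, 109 and 114 CPM to 72.4, 77.8 and 80.0 CPM (-0.52, SE 0.0722, adjusted p = 2.14e-05), without overlap. Kif13a, a carrier of endosomal cargo, rose from 11.1, 10.4 and 9.62 CPM to 13.4, 17.6 and 13.9 CPM (0.53, SE 0.129, adjusted p = 0.00296). Kif5b, the widely expressed conventional kinesin, rose a little, from 171, 175 and 185 CPM to 203, 205 and 222 CPM (0.25, SE 0.0709, adjusted p = 0.0086), again with separate groups. For Kif21b and Kif3a the calls were close to the threshold. Kif21b, which limits microtubule growth in T cells and had the most counts of the 75 genes, read 299, 281 and 273 CPM against 319, 337 and 313 CPM (0.19, SE 0.0701, adjusted p = 0.0384). Kif3a, a subunit of the ciliary kinesin, read 27.7, 29.5 and 28.5 CPM against 23.8, 20.9 and 26.6 CPM (-0.27, SE 0.0985, adjusted p = 0.0348). Neither call held when Th1 replicate 2 (0.17 for Kif21b and -0.26 for Kif3a), Th1 + ALX replicate 1 (0.20 and -0.26) or Th1 + ALX replicate 2 (0.16 and -0.18) was left out, nor did that of Kif21b without Th1 replicate 3 (0.14) or that of Kif3a without Th1 replicate 1 (-0.30). The call of Kif21b was also lost with RLE scaling (adjusted p = 0.0576), upper-quartile scaling (0.134), a stricter filter (0.0634) and protein-coding genes alone (0.104), and that of Kif3a with unscaled library totals (0.103). Kif3b, the partner of Kif3a, was not called, with a 95% interval from -0.17 to 0.13.

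Genes that share the cell cycle with these were listed for comparison and are not members. Of all tested genes, 47.7% were called and 24.5% were higher. Of 76 tested genes for other mitotic proteins, 59 were higher and 3 lower (81.6% called, median 0.51). Those with the smallest p were Ccnf, the cyclin F gene, at 1.36 (adjusted p = 2.47e-09), the condensin subunit gene Ncapd2 at 0.94 (adjusted p = 1.87e-08), the kinetochore gene Kntc1 at 1.06 (adjusted p = 5.08e-08) and Foxm1, encoding a transcription factor of G2 genes, at 0.87 (adjusted p = 1.25e-07). Of 36 tested genes of the G1/S transition and DNA replication, 31 were higher and 1 lower (88.9% called, median 0.71). Rrm2, a subunit of ribonucleotide reductase, was at 1.52 (adjusted p = 5.85e-10), and the replication licensing genes Mcm2, Cdt1 and Mcm3 were at 1.09, 1.29 and 0.92 (adjusted p = 4.38e-09, 7.74e-09 and 3.03e-08). The rise was therefore present in replication genes as well as in mitotic ones, and the difference between the medians was not tested.

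The length of a gene's transcript bore little relation to the size of its change. Pearson's r across the 67 genes, between log2 fold change and log2 length, was -0.03, beside 0.13 across protein-coding genes, as a description over genes that share libraries and are not independent. The 36 higher genes had a median length of 4880 bases and the 7 lower genes one of 4211 bases. Of the 75 genes, 24 shared any exon base with another gene and 9 shared over 10%.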

How the data were processed

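The authors deposited 1 table of raw read counts per gene for the 3 Th1 and 3 Th1 + ALX libraries, with gene lengths, names and GRCm38 positions. The submitters' processing notes name fastp, HISAT2 2.0.5, featureCounts 1.5.0-p3 and the mm10 genome, and the settings for strand and reads with several matches are not given in the sources used here. The labels describe poly-T capture of mRNA and the study's methods depletion of ribosomal RNA. Genes kept by filterByExpr (minimum count 10) were tested in edgeR 4.0.16 (R 4.3.3) with TMM scaling and the quasi-likelihood test, and p-values were adjusted by Benjamini-Hochberg over 15938 genes. The same code was tested on simulated counts. TPM was computed from the counts and gene lengths to compare levels between genes only. Columns were matched to samples by name. Groups were not paired, since same-numbered libraries of both groups deviated together with correlations of -0.00968, -0.00168 and 0.0562. Replicates differed by more than counting noise, so each was counted. Individual values were given for genes named in the rule, members with an absolute log2 fold change over 1, the 6 smallest p-values of the mitotic kinesin, other kinesin and centromere groups and up to 4 of each comparison list. Other genes were summarised or named after their values were seen. The members and the lists were chosen with earlier results of these data known. Alternatives covered scaling, filtering, tool, protein-coding genes, a replicate block and each library left out.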

Additional observations from a re-analysis of the deposited data

How the results depend on the processing

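Across all alternatives that refitted the whole table, between 40 and 46 members were called, against 43, and none of the calls shared with the reported fit had the opposite sign. Ttk, which was never called, changed sign with library totals in place of TMM scaling (0.0262) and without Th1 replicate 3 (0.0850). Requiring an absolute log2 fold change over 1 left 536 higher and 1064 lower of all genes, 4 and 1 of the members, 2 higher among the entry and exit genes, 1 and 0 of the mitotic kinesins, 1 and 0 of the other kinesins, 0 and 1 of the inner centromere, 0 in every other role group, 4 and 0 of the mitotic list and 5 and 0 of the G1/S list. Unscaled library totals moved the share of higher calls among all genes from 51.4% to 58.0%, and upper-quartile scaling moved it to 45.1%. Under library totals the median log2 fold change was 0.410 for all members, 0.517 for the Aurora group, 0.207 for the inner centromere, with 8 genes higher, 1.05 for entry and exit, 0.0402 for other kinesins, with 1 lower, 0.767 for the G1/S list, with 0 lower, and 0.569 for the mitotic list. Under upper-quartile scaling it was 0.298 for all members, 0.404 for the Aurora group, 0.940 for entry and exit and -0.0728 for other kinesins. The Aurora median was 0.443 with RLE scaling and with DESeq2, 0.429 with a stricter filter and 0.409 among protein-coding genes, where entry and exit stood at 0.947 and other kinesins at -0.0667. With no filter the other kinesins stood at 0.0344. Leaving out genes that share over 10% of exon bases, added after seeing the data, took Kif2a away and left 0 lower mitotic kinesins. The same step took away Kif20a, Kif4 and Cenpo, which were all called higher.

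With each library left out in turn, medians ran from 0.360 to 0.526 for the Aurora group, 0.0903 to 0.230 for the inner centromere, 0.345 to 0.447 for NDC80, -0.0549 to 0.0603 for other kinesins and 0.435 to 0.533 for the mitotic list. The number of lower genes ran from 1 to 3 for other kinesins, 0 to 1 for mitotic kinesins and 0 to 1 for the G1/S list. Ttk ran from -0.109 to 0.0850. A replicate block called 7904 genes in place of 7605, with the same 43 members, and not every library correlated best with its own number. On the TPM scale, added after seeing the data, the median of all tested genes shifted to 0.185, and all 7 lower members stayed below 0, at -0.85 for Cenpa and -0.083 for Kif3a. With 3 cultures a group, small changes such as those of Kif15 and Cenpc1 were not resolved.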
